A study of Mus musculus with 2 samples.

Results

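Laminins are secreted trimers of 1 alpha, 1 beta and 1 gamma chain that build the sheet of basement membranes, and integrins are membrane receptors made of 1 alpha and 1 beta subunit that hold cells to that sheet and to other matrix proteins. In the embryonic neural tube the basement membrane lies under the pia and around vessels, and the end feet of radial glia rest on it through laminin-binding receptors. The genes described here are the protein-coding genes of the GENCODE M21 annotation whose symbols name a laminin chain (Lama, Lamb or Lamc with a number) or an integrin subunit (Itga or Itgb with a number, and Itgav, Itgal, Itgam, Itgax, Itgad and Itgae). There were 37 of them, 11 laminin and 26 integrin genes, among 55536 genes and 22028 protein-coding genes in the tables. The rule reads symbols and uses no measured value.

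The data are polyA plus RNA-seq of hindbrain from healthy, untreated mouse embryos of strain B6NCrl at embryonic day 12.5, male and female mixed. Pool 1 combined tissue of 120 embryos and pool 2 that of 88 embryos, and both entered the libraries as 10 ng of RNA. The labels number them as biological replicates, so the series holds 1 group with n = 2 and no treated, mutant or later group to set against it, and no test between conditions was possible. Ratios are given as pool 1 over pool 2 and describe how far the replicates lay apart.

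Gene counts summed to 31469575 in pool 1 and 29261472 in pool 2, and the 37 genes took 40220 of them (0.128%) in pool 1 and 38866 (0.133%) in pool 2. The pools differed by more than sampling noise over all genes (chi-square per gene 8.58), so they were treated as separate samples. The label of hindbrain was checked against its markers: 4 of 5 reached 1 TPM (a level per length of transcript, scaled to the same total in each library) in both pools, led by Hoxb2, Hoxa2 and Gbx2, and Egr2 had 0.88 TPM in pool 1 and 1.17 TPM in pool 2. Every marker fixed for neurons (led by Tubb3, Ina and Nefl), radial glia (Fabp7, Vim and Hes5), pericytes (Pdgfrb, Cspg4 and Rgs5), endothelium (Cldn5, Kdr and Pecam1), mesenchyme (Col3a1, Col1a1 and Col1a2), cartilage (Col2a1, Col9a1 and Matn1), skeletal muscle (Myl1, Tnnc1 and Acta1), surface epithelium (Epcam, Krt18 and Krt8), microglia (C1qb, C1qc and Tyrobp), Schwann precursors (Prph and Sox10) and choroid plexus (Ttr, Otx2 and Aqp1) reached 1 TPM in both pools. Platelet markers did so in 5 of 7 cases (Pf4, Gp1bb and Ppbp highest), and lymphocyte markers in 0 of 4 (Cd79a, Cd3g and Cd3e highest). In bulk tissue of this kind, fewer cells of a type and less RNA per cell cannot be told apart, and 2 subunits found together need not come from the same cell.

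At a level of 1 TPM or more in both pools, 26 of the 37 subunit genes were present, against 61.8% of all protein-coding genes. The median level was 4.89 TPM over the 37 genes and 5.46 TPM over all protein-coding genes, so the set as a whole sat at an ordinary level. Its members spread widely, between 0 counts for Itgad and about 149 TPM for Itgb1. By chain type, 4 of 5 laminin alpha, 2 of 3 laminin beta, 12 of 18 integrin alpha and 5 of 8 integrin beta genes reached the level.

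**Figure D1:**
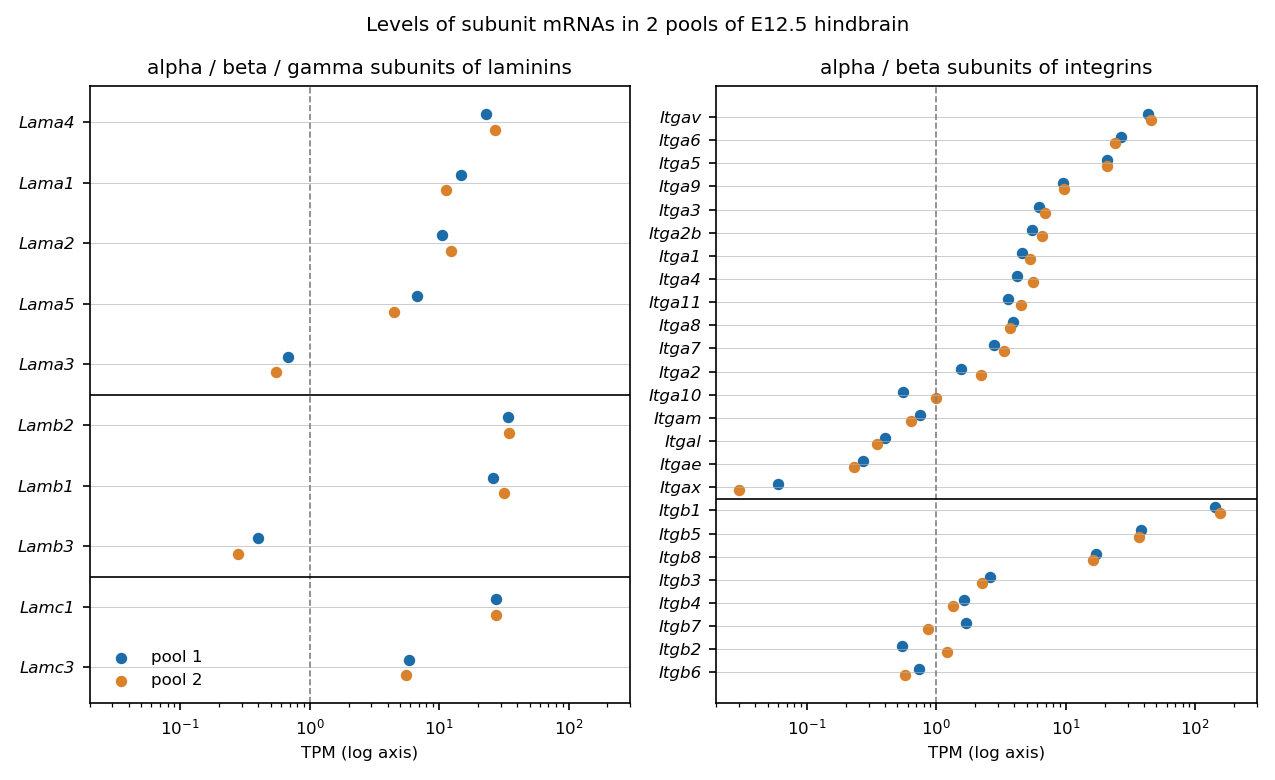
TPM of laminin subunits (left) and integrin subunits (right) in pool 1 (blue) and pool 2 (orange) on a log axis, ordered by mean within each chain type; the dashed line marks 1 TPM. Itgad, with 0 counts in both pools, is not drawn, and Itgb1 stands at the right with 142 TPM in pool 1 and 156 TPM in pool 2.

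Among the laminin alpha chains, which carry most of the receptor-binding sites, Lama4 was the most abundant. This chain, typical of vessel and mesenchymal basement membranes, had 23.0 TPM in pool 1 and 27.3 TPM in pool 2 (25.1 ± 3.01, SD, n = 2). Lama1, the chain of the earliest embryonic basement membranes and of the pia, had 14.9 TPM in pool 1 and 11.3 TPM in pool 2. Lama2, known from the muscle basement membrane and the glial border of brain vessels, had 10.5 TPM in pool 1 against 12.4 TPM in pool 2. Over all annotated transcripts, the ranges of Lama1 and Lama2 overlapped, while Lama4 lay above both in each pool. Lama5, a broadly used chain of epithelial and mature vessel membranes, was lower at 6.74 TPM in pool 1 against 4.45 TPM in pool 2. Lama3, the epidermal chain, was below the level, with 0.68 TPM in pool 1 and 0.55 TPM in pool 2. Lama4 made up 45.0% ± 5.23 of the summed laminin alpha TPM (SD, n = 2).

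The beta chains were led by the widespread Lamb1 and Lamb2, and the gamma chains by Lamc1 alone. Lamb2 had 34.1 TPM in pool 1 and 34.4 TPM in pool 2, and Lamb1 had 26.1 TPM in pool 1 and 31.8 TPM in pool 2. These ranges did not overlap. Lamc1, the gamma chain found in most laminins, had 27.7 TPM in each pool and made up 79.5% of the gamma chain total (SD 0.0365 percentage points, n = 2). Lamc3 followed with 5.87 TPM in pool 1 and 5.52 TPM in pool 2. Lamb3, the epidermal beta chain, had 0.40 TPM and 17 counts in pool 1 and 0.28 TPM and 21 counts in pool 2. The epidermal markers Krt5 (10.9 TPM in pool 1 and 12.7 TPM in pool 2) and Krt14 (9.52 TPM in pool 1 and 7.86 TPM in pool 2) were present.

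Among the integrin beta subunits Itgb1 dominated. Itgb1 (ENSMUSG00000025809.15, chr8:128685654-128733200 on mm10), the partner of most alpha subunits, had 142 TPM in pool 1 and 156 TPM in pool 2, from 10491 counts in pool 1 and 10653 counts in pool 2. It made up 70.9% ± 2.02 of the summed integrin beta TPM. Itgb5, a partner of alphav and a vitronectin receptor subunit, had 37.8 TPM in pool 1 and 37.1 TPM in pool 2. Itgb8, the alphav partner through which radial glia release active TGF-beta, had 17.2 TPM in pool 1 and 16.3 TPM in pool 2. Both lay apart from Itgb1 and from each other in each pool. Itgb3, shared by the platelet receptor and by alphav, had 2.61 TPM in pool 1 and 2.25 TPM in pool 2. Itgb4, the hemidesmosome subunit, had 1.64 TPM in pool 1 against 1.34 TPM in pool 2.

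The cytoplasmic ends of the beta subunits are where talin and kindlins bind, through motifs that include NPxY (or NPxF), named after their residues. They are shown for the 4 most abundant beta subunits that have short tails, because these subunits differ there. The last 150 coding bases before the stop codon were read from the GENCODE M21 transcripts on mm10, with the codons of each match in capitals. The positions span introns: Itgb1-201 at chr8:128726100-128732085 on the plus strand, Itgb5-202 at chr16:33947825-33948749 on the plus strand, Itgb8-201 at chr12:119163120-119163366 on the minus strand, and Itgb3-201 at chr11:104665546-104667142 on the plus strand.
Itgb1: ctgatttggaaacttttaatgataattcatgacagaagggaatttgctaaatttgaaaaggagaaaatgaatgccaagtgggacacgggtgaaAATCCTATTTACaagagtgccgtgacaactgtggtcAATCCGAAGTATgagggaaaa
Itgb5: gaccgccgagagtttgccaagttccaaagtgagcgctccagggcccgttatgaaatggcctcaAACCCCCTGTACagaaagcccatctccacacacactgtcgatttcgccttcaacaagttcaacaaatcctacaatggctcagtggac
Itgb8: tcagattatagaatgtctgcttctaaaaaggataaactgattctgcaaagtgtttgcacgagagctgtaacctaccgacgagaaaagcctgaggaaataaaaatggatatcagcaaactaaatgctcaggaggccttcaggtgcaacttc
Itgb3: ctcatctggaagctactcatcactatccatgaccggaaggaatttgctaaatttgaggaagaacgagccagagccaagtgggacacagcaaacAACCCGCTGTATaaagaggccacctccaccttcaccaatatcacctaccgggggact
Within the last 100 codons, Itgb1 held 2 matches, Itgb5 and Itgb3 held 1 each, and Itgb8 held 0. Of the other beta subunits, Itgb2 and Itgb7 held 2 matches each, Itgb6 held 1 and Itgb4, whose tail is far longer than the window, held 0. The search read only these letters in this window, and other motifs were not searched. Sites of the form NxxY without the proline, such as NITY in the Itgb3 stretch and NKSY in the Itgb5 stretch, were not counted. The number of matches is therefore not a number of binding sites. Of the 3 beta subunits with 2 matches, Itgb1 was the one that reached 1 TPM in both pools.

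The integrin alpha subunits had a steep order by TPM. Itgav, the alpha subunit of the receptors for vitronectin and latent TGF-beta, had 42.9 TPM in pool 1 and 45.8 TPM in pool 2. Itga6, the main laminin receptor subunit of neural progenitors and a marker of their basal ends, had 26.8 TPM in pool 1 and 24.2 TPM in pool 2. Itga5, the fibronectin receptor subunit, had 20.8 TPM in pool 1 and 20.7 TPM in pool 2. These 3 subunits did not overlap one another in range, and together with Itga9 they stood above all other alpha subunits in both pools.

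Of the remaining laminin-binding alpha subunits, Itga3 had 6.19 TPM in pool 1 and 6.90 TPM in pool 2, and Itga7, known from skeletal muscle, had 2.78 TPM in pool 1 and 3.35 TPM in pool 2. Itga3, Itga6 and Itga7 together made up 27.0% ± 1.51 of the summed level of the Itgb1 partners (SD, n = 2). The collagen-binding subunits were low: Itga1 had 4.62 TPM in pool 1 and 5.27 TPM in pool 2, Itga11 had 3.60 TPM in pool 1 and 4.48 TPM in pool 2, and Itga2 had 1.56 TPM in pool 1 and 2.22 TPM in pool 2. Itga10, the cartilage collagen receptor, was below the level, with 0.55 TPM in pool 1 and 0.99 TPM in pool 2. All 4 markers of cartilage were above 1 TPM in both pools, with Col2a1 at 355 TPM in pool 1 against 374 TPM in pool 2. Itga1 and Itga2 are neighbours on chromosome 13, 20995 bases apart on the same strand, and Itga1 was the higher of the pair in both pools.

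Itga9, a receptor subunit for tenascin C and vascular adhesion ligands, had 9.60 TPM in pool 1 and 9.74 TPM in pool 2. Itga4, whose partner ligands are fibronectin and Vcam1, had 4.22 TPM in pool 1 and 5.56 TPM in pool 2, and Itga8, the nephronectin receptor subunit, had 3.91 TPM in pool 1 against 3.70 TPM in pool 2. The ranges of Itga8 and Itga11 overlapped, and so did those of Itga1 and Itga4. Itga2b, the alpha subunit of the platelet fibrinogen receptor, had 5.52 TPM in pool 1 and 6.55 TPM in pool 2, a range that overlapped that of Itga3. The platelet markers beside it summed to 77.8 TPM in pool 1 and 60.1 TPM in pool 2, with Pf4 at 58.1 TPM in pool 1 against 43.1 TPM in pool 2.

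The white-cell integrins were low, and most lay below 1 TPM in both pools. Itgal, Itgam, Itgax and Itgad, the alpha subunits that pair with Itgb2, had between 0 and 0.75 TPM: Itgam had 0.75 TPM in pool 1 and 0.64 TPM in pool 2, Itgal had 0.40 TPM in pool 1 and 0.35 TPM in pool 2, and Itgax had 5 counts in pool 1 and 2 counts in pool 2. Itgad had no count in either pool, which allows up to 0.0602 TPM in pool 1 and 0.0653 TPM in pool 2 at 3 counts each, for counting error only. Itgam, Itgax and Itgad lie side by side on chromosome 7 on the plus strand, with gaps of 11055 bases between Itgam and Itgax and 3718 bases between Itgax and Itgad. Itgb2, the shared beta subunit of leukocytes, had 0.54 TPM in pool 1 and 1.21 TPM in pool 2 from 29 counts in pool 1 and 57 counts in pool 2, so it passed the level in pool 2 alone. All 8 of 8 microglia and macrophage markers were at 1 TPM or more, between C1qb at 24.5 TPM in pool 1 against 26.8 TPM in pool 2 and Ptprc at 1.14 TPM in each pool, which is below Itgb2 in pool 2. Itgae, an intraepithelial lymphocyte subunit, had 0.27 TPM in pool 1 and 0.23 TPM in pool 2. Itgb7 had 1.70 TPM in pool 1 and 0.86 TPM in pool 2, resting on 21 counts in pool 1 and 13 counts in pool 2. Most of that TPM, 81.2% in pool 1 and 76.7% in pool 2, was assigned to Itgb7-204, a retained-intron transcript of 449 bases. Itgb7-201, which carries the full coding sequence, had 0.20 TPM in pool 1 and 0.18 TPM in pool 2, and under the older M4 annotation the gene had 0.43 TPM in pool 1 and 0.29 TPM in pool 2, so its pass in pool 1 was lost in both readings. Itgb6, an epithelial partner of alphav, had 0.73 TPM in pool 1 and 0.57 TPM in pool 2. In all, 9 of the 37 genes were below 1 TPM in both pools, and Itgb2 and Itgb7 were below it in 1 pool each.

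Close to the membrane, integrin alpha tails carry a motif named GFFKR that clasps the beta subunit. It is shown for Itgav and Itga5, which are among the 3 most abundant alpha subunits, and for the 3 expressed ones that depart from it; that of Itga6 is printed further on with its splice forms. Codons around the motif were read from the GENCODE M21 transcripts on mm10, with the 5 codons of the motif or its counterpart in capitals; each stretch spans an intron. The positions are chr2:83802997-83803275 plus strand for Itgav-201, chr15:103345317-103345957 minus strand for Itga5-201, chr2:12109166-12110980 minus strand for Itga8-201, chr9:118887878-118897269 plus strand for Itga9-201, and chr9:62782044-62782663 plus strand for Itga11-201.
Itgav: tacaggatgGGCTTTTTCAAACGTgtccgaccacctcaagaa
Itga5: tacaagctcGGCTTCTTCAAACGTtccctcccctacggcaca
Itga8: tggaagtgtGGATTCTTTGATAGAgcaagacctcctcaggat
Itga9: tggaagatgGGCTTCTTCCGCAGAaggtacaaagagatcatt
Itga11: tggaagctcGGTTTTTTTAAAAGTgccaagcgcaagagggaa
Of the 12 expressed alpha subunits, 9 held the exact motif and 11 held it with any codon in its second-last place, which brings in Itga8 and Itga9. Itga11 differs in its last codon and held neither form. Over all 18 alpha subunits the counts were 14 and 17.

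Known laminin trimers were then read against the levels. A trimer was called allowed where each of its 3 chains had 1 TPM or more in both pools, which says only that all the messages were in the tissue. Of 15 listed trimers, 12 were allowed. The 3 that were not, laminin-311, laminin-321 and laminin-332, all contain Lama3, and laminin-332 also contains Lamb3. The number of a trimer gives its alpha, beta and gamma chain in turn. The trimers with the highest limiting chain were laminin-411 and laminin-421, limited by Lama4 at 23.0 TPM in pool 1 against 27.3 TPM in pool 2. By the mean, laminin-111 and laminin-121 followed, limited by Lama1, and then laminin-211 and laminin-221, limited by Lama2. Lamc3 limited laminin-213 and laminin-423 at 5.87 TPM in pool 1 against 5.52 TPM in pool 2. Lama5 limited laminin-511 and laminin-521 at 6.74 TPM in pool 1 against 4.45 TPM in pool 2. In laminin-523 the lowest chain was Lamc3 in pool 1 and Lama5 in pool 2.

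Of the 24 integrin heterodimers known in vertebrates, 16 were allowed. Itgb1 could be paired with 11 of its 12 alpha partners, the missing one being Itga10, and in every one of the 11 pairs the alpha subunit had the lower level. Itgav could be paired with 4 of its 5 beta partners, Itgb6 being the missing one. Itgb3 was the lower subunit of the alphav-beta3 pair, and Itgb3 was also the lower one in the platelet pair of Itga2b with Itgb3. The hemidesmosome pair of Itga6 with Itgb4 was allowed at 1.64 TPM in pool 1 against 1.34 TPM in pool 2. None of the 4 Itgb2 pairs and neither of the 2 Itgb7 pairs was allowed. By the lower subunit, the pairs with the highest level were alphav-beta1, alphav-beta5, alpha6-beta1, alpha5-beta1 and alphav-beta8, in that order of the mean.

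**Figure D2:**
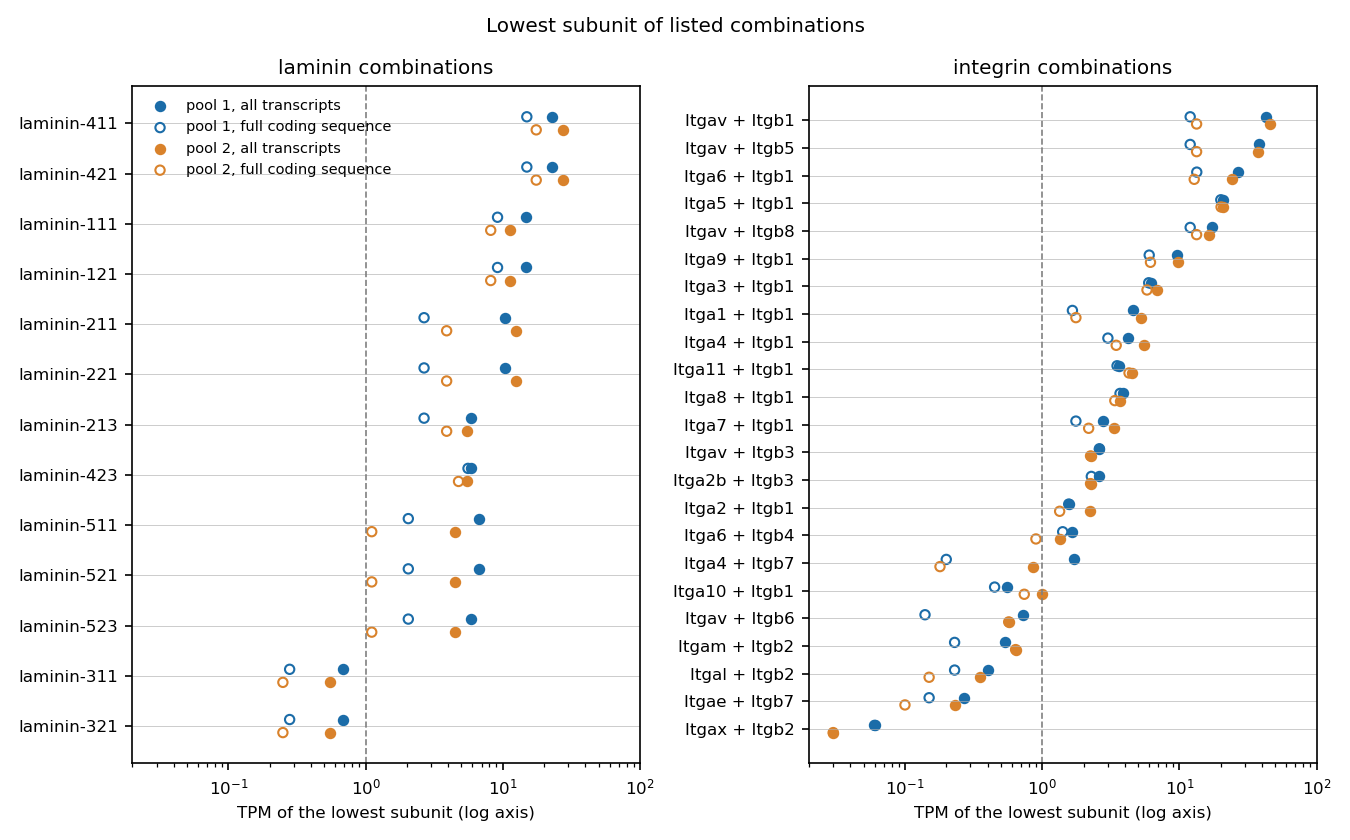
TPM of the lowest subunit of laminin trimers (left) and integrin pairs (right) in pool 1 (blue) and pool 2 (orange), log axis, from all transcripts (filled) and from transcripts with a full coding sequence (open); the dashed line marks 1 TPM and the Itgad pair, at 0, is not drawn. The open points of Itgav with Itgb1, Itgav with Itgb5, laminin-511 and laminin-521 sit far left of the filled ones, and the Itga6 with Itgb4 pair crosses the line in pool 2.

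Summed over chains, the laminin alpha chains reached 55.7 TPM in pool 1 against 56.0 TPM in pool 2, the beta chains 60.6 TPM in pool 1 and 66.5 TPM in pool 2, and the gamma chains 34.8 TPM in each pool. There were 1.61 alpha messages and 1.83 ± 0.120 beta messages per gamma message (SD, n = 2; SD 0.00562 for alpha), where each trimer needs 1 of each. The gamma chain was the scarcest of the 3 kinds in both pools. For the integrins, the 12 alpha partners of Itgb1 summed to 0.875 ± 0.0326 of the Itgb1 level, and to 0.373 ± 0.00692 of it without Itgav, Itga4 and Itga6, which also have other partners. Itgb1 thus had at least as many messages as all its alpha partners combined.

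**Figure D3:**
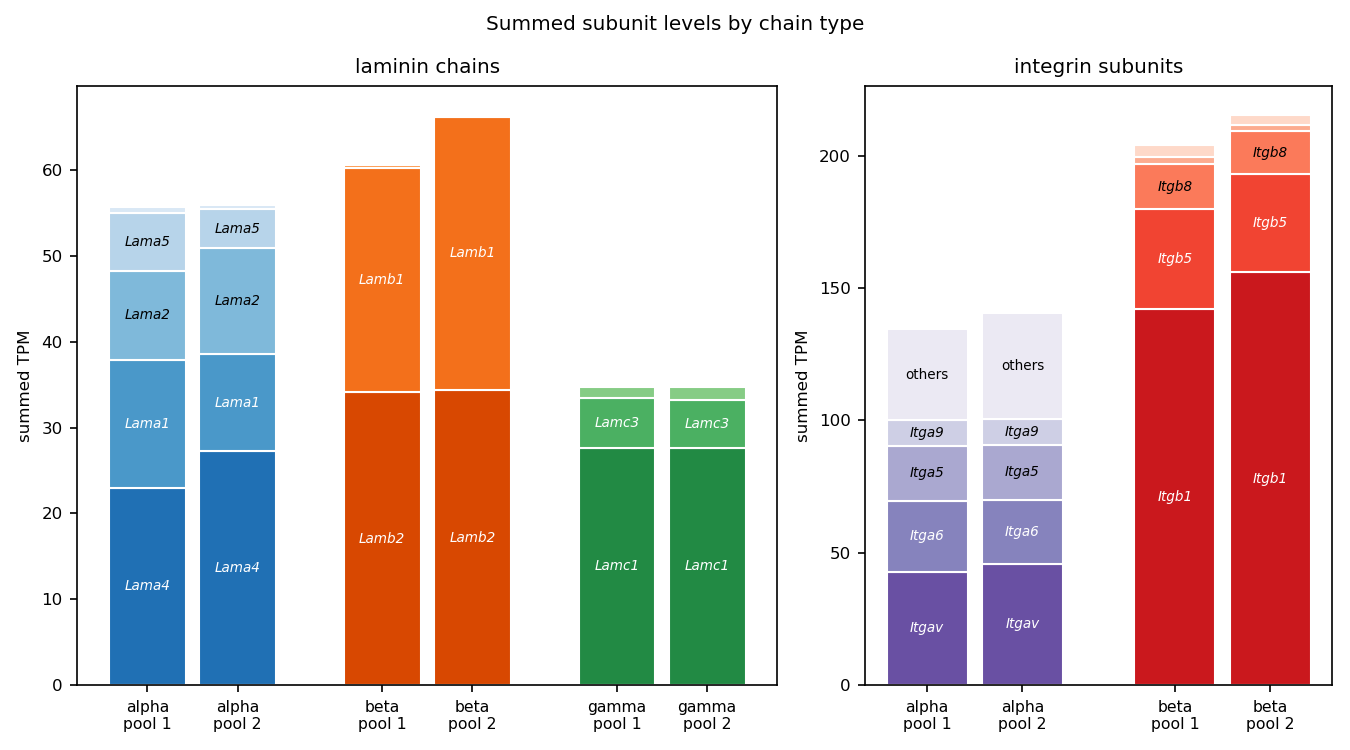
Summed TPM of laminin alpha, beta and gamma chains (left) and of integrin alpha and beta subunits (right), pool 1 left of pool 2 for each chain type, with up to 4 of the highest members stacked from the bottom and the rest on top. The laminin gamma bars, at 34.8 TPM, are the shortest of the laminin bars, and Itgb1 fills most of the integrin beta bars.

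These gene levels add up all annotated transcripts of a gene, and not all of those can make a whole subunit. A transcript was counted as full where its coding sequence is complete and at least 80% as long as the longest one of the gene, a division chosen after seeing the data. In 22 of the 26 expressed genes the transcript with the highest TPM in pool 1 was full. The 22 include Itga1, where a full transcript and one that retains introns were level. The exceptions were Lama2, Lama5, Itga6 and Itgav. In pool 2 the highest transcript was full for Lama2 and Itga6, and was not full for Itga1. Itgb1 and Itgb3 were nearly all full, with 99.5% and 100% of their TPM in pool 1 and 99.6% and 100% in pool 2. At the other end, Lama5, Lama2, Itgav, Itga1 and Itga2b had under 50% of their TPM in full transcripts in both pools.

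In Itgav a single short transcript held most of the TPM. Its transcript Itgav-205, which has 463 bases at the 3' end of the gene and an incomplete coding sequence, held 62.4% of the TPM of Itgav in pool 1 and 60.9% in pool 2, from 195 expected counts in pool 1 and 187 in pool 2. The full transcripts held 27.9% of the TPM in pool 1 and 29.1% in pool 2, but 85.5% of the expected counts in pool 1 and 86.8% in pool 2. The 2 shares differ because TPM divides counts by length. By full transcripts Itgav had 11.97 TPM in pool 1 and 13.3 TPM in pool 2. Itga5 was then the highest alpha subunit with 20.0 TPM in pool 1 and 20.1 TPM in pool 2, and Itga6, at 13.4 TPM in pool 1 against 12.8 TPM in pool 2, overlapped Itgav.

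Lama5 had a still wider gap between the 2 shares. Its full transcript Lama5-201, of 79 exons, held 92.2% of the expected counts in pool 1 and 90.2% in pool 2, yet 30.4% of the TPM in pool 1 and 24.9% in pool 2. A few short transcripts took the rest: Lama5-204, of 478 bases, had 17.6 counts and 2.33 TPM in pool 1 and 7.46 counts and 1.07 TPM in pool 2. The transcript of highest TPM was Lama5-204 in pool 1 and Lama5-202 in pool 2. By its full transcript Lama5 came to 2.05 TPM in pool 1 and 1.11 TPM in pool 2. Lama2 differed in that its other transcripts also held many counts: the full Lama2-201 had 60.4% of the expected counts in pool 1 and 68.8% in pool 2, and 2.67 TPM in pool 1 and 3.90 TPM in pool 2. Lama2-208, a 3383-base transcript near the 3' end with an incomplete coding sequence, was the highest in pool 1 with 2.75 TPM, against 2.59 TPM in pool 2.

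Full transcripts left the allowed trimers at 12 of 15, and reduced the allowed integrin pairs to 15 of 24, because Itgb4 came to 1.41 TPM in pool 1 against 0.90 TPM in pool 2. The order of the combinations changed too. The pair alpha5-beta1 then led, limited by Itga5, and alpha6-beta1 followed by the mean, limited by Itga6. The pairs alphav-beta1, alphav-beta5 and alphav-beta8 came after them at 11.97 TPM in pool 1 against 13.3 TPM in pool 2, all limited by Itgav, in a range that overlapped that of alpha6-beta1. Among the trimers, laminin-411, laminin-421, laminin-111 and laminin-121 still led, but laminin-423, limited by Lamc3 at 5.58 TPM in pool 1 against 4.76 TPM in pool 2, stood above laminin-211 and laminin-221. Lamb1, at 24.9 TPM in pool 1 against 29.6 TPM in pool 2, then overlapped Lamb2, at 25.5 TPM in both pools. Lama1, at 9.16 TPM in pool 1 against 8.17 TPM in pool 2, no longer overlapped Lama2, which was lower in both pools. The alpha partners of Itgb1 came to 0.501 ± 0.0227 of the Itgb1 level, and the laminin ratios came to 1.22 ± 0.0735 alpha and 2.16 ± 0.173 beta messages per gamma message (SD, n = 2). The order of the chain types did not change, with gamma the lowest in both pools.

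**Figure D4:**
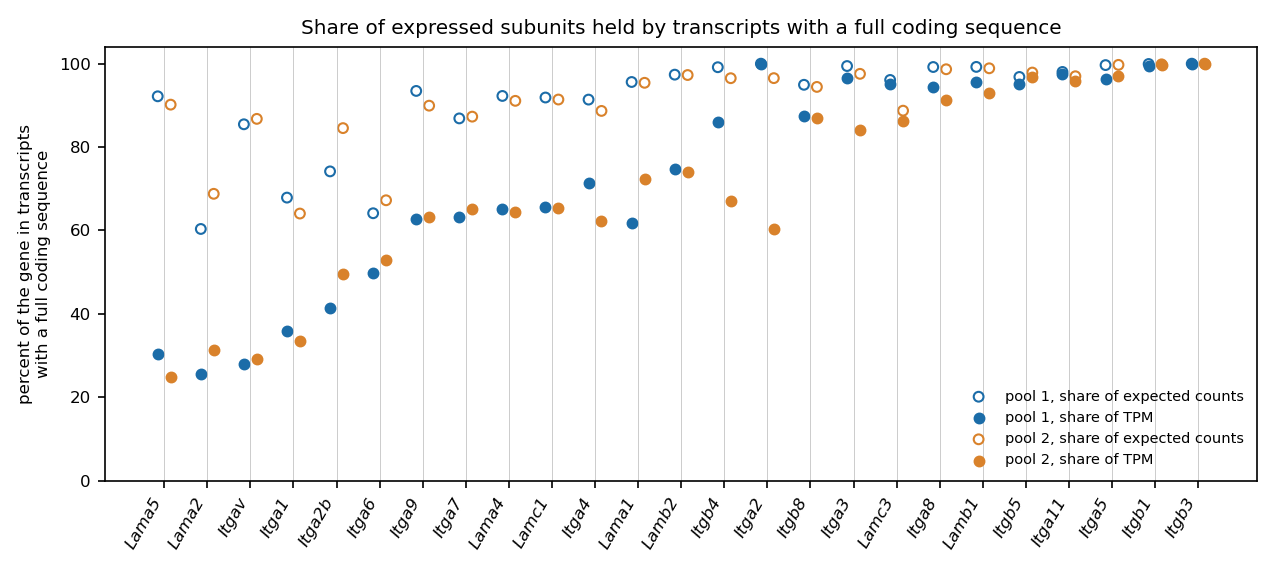
Percent of the expressed genes drawn that was held by transcripts with a full coding sequence, as a share of TPM (filled) and of expected counts (open), in pool 1 (blue) and pool 2 (orange), ordered by the mean share of TPM. Lama5 and Itgav stand at the left with 30.4% and 27.9% of TPM in pool 1 but 92.2% and 85.5% of counts, and Itgb1 and Itgb3 at the right with 99.5% and 100% of TPM in pool 1.

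Some full transcripts differ at the cytoplasmic end of the subunit. Itga6-201 includes an exon of 130 bases, 105 of them coding, at chr2:71853534-71853663 on mm10 and ends in the tail known as alpha6A, while Itga6-202 skips it and ends in alpha6B, the form of early embryos and stem cells. The coding ends are shown because the alpha3 and alpha6 pairs split in the same way, right after a pair of identical codons. They were read from the GENCODE M21 transcripts, chr2:71849501-71853638 and chr2:71849501-71856012 on the plus strand for Itga6, chr11:95046483-95046926 and chr11:95045611-95046926 on the minus strand for Itga3. Capitals mark the coding bases at genome positions from which the other form of the same gene reads no coding sequence; their letters can still coincide, as the first few do in both genes.
Itga6-201: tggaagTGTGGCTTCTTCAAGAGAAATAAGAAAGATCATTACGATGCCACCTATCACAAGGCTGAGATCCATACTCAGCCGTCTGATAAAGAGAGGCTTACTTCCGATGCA
Itga6-202: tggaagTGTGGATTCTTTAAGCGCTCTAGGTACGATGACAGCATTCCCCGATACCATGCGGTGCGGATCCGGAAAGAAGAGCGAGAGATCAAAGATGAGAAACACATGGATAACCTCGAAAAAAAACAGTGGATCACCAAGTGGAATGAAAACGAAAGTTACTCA
Itga3-201: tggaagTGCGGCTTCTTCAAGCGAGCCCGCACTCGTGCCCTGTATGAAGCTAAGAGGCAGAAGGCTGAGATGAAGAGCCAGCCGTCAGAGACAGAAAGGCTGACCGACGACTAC
Itga3-203: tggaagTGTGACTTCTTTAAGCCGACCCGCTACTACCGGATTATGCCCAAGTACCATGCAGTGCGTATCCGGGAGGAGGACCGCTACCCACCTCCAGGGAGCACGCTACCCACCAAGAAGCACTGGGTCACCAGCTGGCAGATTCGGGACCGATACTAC
Both Itga6 forms and Itga3-201 hold the exact GFFKR codons, and Itga3-203 holds none of its forms.

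The 2 Itga6 forms were both well represented. Itga6-201 had 6.76 TPM in pool 1 and 8.06 TPM in pool 2, and Itga6-202 had 6.61 TPM in pool 1 against 4.75 TPM in pool 2. The alpha6A form thus made up 50.6% of the pair in pool 1 and 62.9% in pool 2, so the forms were nearly level in pool 1 and alpha6A was the higher in pool 2. Another transcript, Itga6-203, which has 2721 bases at the 3' end of the gene and no annotated coding sequence, held 37.0% of the Itga6 TPM in pool 1 and 32.6% in pool 2. Itga3-201, which holds an exon of 142 bases and ends in alpha3A, made up 81.7% of its pair with Itga3-203 in pool 1 and 76.2% in pool 2. In Itga7 the forms Itga7-201 and Itga7-202 use alternative exons of 120 and 132 bases outside the tail. Itga7-201 made up 100% of the pair in pool 1 and 72.9% in pool 2, with Itga7-202 at 0 expected counts in pool 1 and 42.8 in pool 2. In Itga1 the full Itga1-201 and Itga1-206, which retains introns, were level in pool 1 at 1.66 TPM each. In pool 2 Itga1-206 was the highest at 2.76 TPM, against 1.76 TPM for Itga1-201. Itga2b-201 held 41.2% of its gene in pool 1 and 49.5% in pool 2, and Itgb4-202 held 38.7% in pool 1 and 44.0% in pool 2.

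Subunits with enough counts stayed within 2-fold between the pools, but by the median they lay farther apart than genes in general. Of 29 subunit genes with 50 or more counts on average, 0 differed 2-fold or more in scaled counts, against 1.00% of all genes with as many counts. With so few subunits, that count does not tell them from all genes. At 1.5-fold or more there were 3, against 3.43% of all genes, with 2 towards pool 1 (1.60% of all genes) and 1 towards pool 2 (1.83% of all genes). The median log2 ratio of pool 1 over pool 2 was 0.00 for the subunits, with 16 towards pool 1 and 13 towards pool 2. The median size of a log2 ratio, whatever its sign, was 0.18 for the subunits and 0.10 for all genes. Lamb2, Lamc1, Itga5 and Itga3 had log2 ratios between 0.00 and 0.02. These directions are relative to the bulk of genes: scaled by the spike-ins, the median log2 ratio of all genes was 0.37, and 1 of the 29 subunits stayed negative.

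Among the 29 subunits with 50 or more counts on average, the one farthest from 0 was Lama5, with 501 counts in pool 1 and 257 counts in pool 2, a log2 ratio of 0.85 (counting interval, 95%, 0.63 to 1.08). Itgb4 came next towards pool 1, with 160 counts in pool 1 and 97 counts in pool 2 and a log2 ratio of 0.61 (0.24 to 0.99). The surface epithelium markers summed to 115 TPM in pool 1 and 85.7 TPM in pool 2, but in a mixed way: Epcam had 38.8 TPM in pool 1 and 19.4 TPM in pool 2, and Krt8, Krt18 and Krt14 also leaned to pool 1, while Krt5, Krt15 and Trp63 leaned to pool 2. Their part in the Lama5 and Itgb4 ratios was not tested. Of the same 29, Itga10 was the farthest towards pool 2, at -0.70 (-1.27 to -0.15), from 46.7 expected counts in pool 1 and 70.9 in pool 2. The 4 cartilage markers all had negative log2 ratios, but of unequal size. Matn1 had -2.04 and Acan had -1.42, while the more abundant Col9a1 had -0.11 and Col2a1 had -0.07. The part of cartilage in the Itga10 ratio was not tested. Below 50 counts on average, Itgb6 at -1.39 (-2.27 to -0.62) and Itgb2 at -1.07 (-1.78 to -0.41) lay farther towards pool 2.

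Lama2, with a log2 ratio of -0.35, Lama4 with -0.24, Lamb1 with -0.24, Itga11 with -0.30 and Itga4 with -0.24 leaned to pool 2. So did Itga2b with -0.31, Itgb1 with -0.13 and Itgav with -0.12. All 8 mesenchyme markers leaned to pool 2, summing to 1308 TPM in pool 1 and 1701 TPM in pool 2. That lean was not particular to mesenchyme. Negative log2 ratios were also found for 5 of 5 hindbrain, 3 of 3 choroid plexus and 4 of 5 pericyte markers. Positive ones were found for 5 of 6 radial glia, 4 of 7 surface epithelium and 4 of 7 platelet markers. Itga7 had a log2 ratio of -0.30 (-0.61 to 0.02), while the skeletal muscle markers summed to 44.1 TPM in pool 1 and 217 TPM in pool 2, with all 8 higher in pool 2. None of these marker lists was tested against the subunits. The Itga7 ratio was far smaller than the muscle median of -2.29. Lama1 leaned the other way at 0.17 (0.07 to 0.27).

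**Figure D5:**
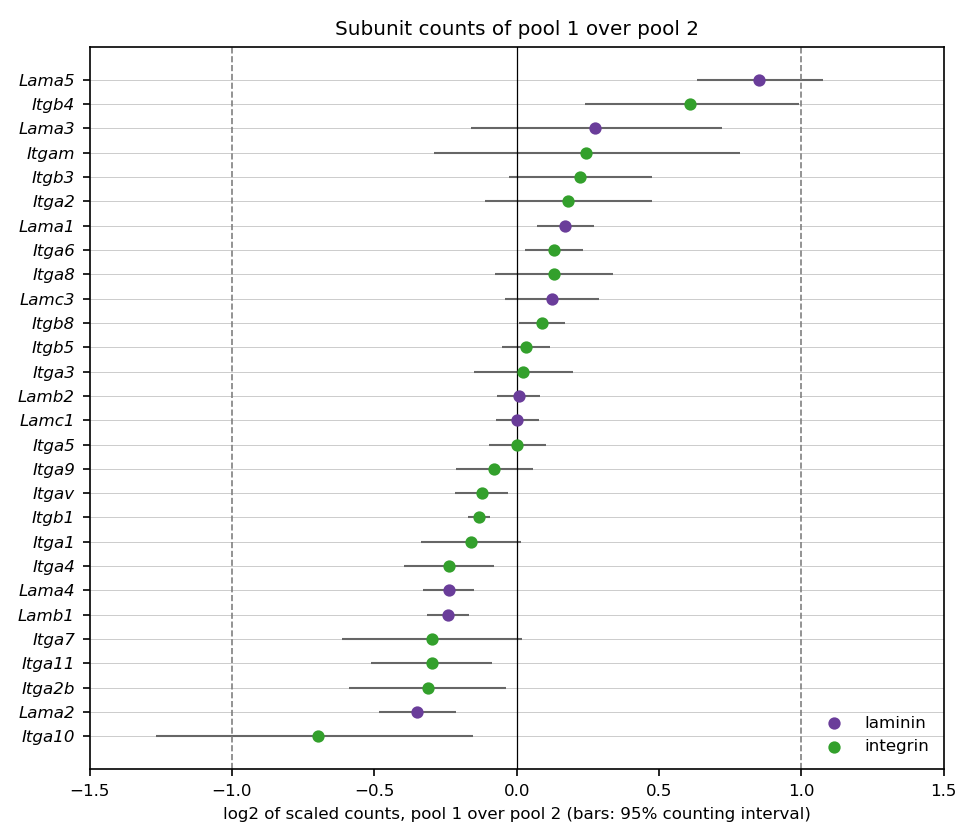
Log2 ratio of scaled counts, pool 1 over pool 2, for subunit genes with 50 or more counts on average, with 95% intervals for counting error only; dashed lines mark 2-fold either way. Lama5 stands highest at 0.85 and Itga10 lowest at -0.70, and no point lies beyond a dashed line.

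For some subunits TPM and counts went opposite ways. Itga2 had 219 counts in pool 1 and 179 counts in pool 2 but its TPM, given above, was higher in pool 2, and its transcript Itga2-202 was listed at 0 in pool 1 and 0.89 TPM in pool 2. Itgb6 had 19 counts in pool 1 and 47 counts in pool 2, while its TPM was the higher in pool 1. Lamb3, with 17 counts in pool 1 and 21 counts in pool 2, and Lamb2, Lamc1 and Itga3, with count ratios close to 0, did likewise.

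Partners of these receptors were counted at the same level, which 61.8% of all protein-coding genes reached. That share applies to each list below. The lists were chosen with earlier results of these data known, so their counts are description only. Of 13 genes listed as basement membrane partners, 11 reached 1 TPM in both pools. The highest was Sparc at 575 TPM in pool 1 against 601 TPM in pool 2. Agrn (agrin) had 138 TPM in pool 1 against 124 TPM in pool 2. Col4a1 had 121.8 TPM in pool 1 against 120.8 TPM in pool 2. Col18a1 had 84.4 TPM in pool 1 against 79.2 TPM in pool 2. Col4a3 and Col4a4, the collagen IV chains of kidney and other specialised membranes, were below 1 TPM, at 0.11 to 0.20 TPM. Col4a1 stood above every laminin chain in both pools.

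Dystroglycan, the other main laminin receptor of brain, was listed with genes that build its sugar chains, and 12 of 12 of these genes, Dag1 included, reached 1 TPM in both pools. Dag1, which encodes it, had 57.9 TPM in pool 1 and 61.7 TPM in pool 2, and Pomgnt1 had 52.3 TPM in pool 1 and 48.1 TPM in pool 2. B4gat1 had 33.9 TPM in pool 1 and 37.4 TPM in pool 2, and Rxylt1 had 35.1 TPM in pool 1 and 30.6 TPM in pool 2. All 7 of 7 genes of other laminin receptors passed, with Rpsa, also a ribosomal protein, at 720 TPM in pool 1 against 609 TPM in pool 2, and Sdc1 at 54.3 TPM in pool 1 against 62.2 TPM in pool 2; Sdc2 and Dag1 completed the highest 4. Dag1 lay below Itgb1 and above each integrin alpha subunit in both pools.

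All 24 of 24 other integrin ligands passed as well. The highest were Fn1 (fibronectin) at 113 TPM in pool 1 against 132 TPM in pool 2, Vtn (vitronectin) at 120 TPM in pool 1 against 90.6 TPM in pool 2, Emilin1, a ligand of alpha4 and alpha9 integrins, at 93.4 TPM in pool 1 against 93.9 TPM in pool 2, and Thbs1 at 69.5 TPM in pool 1 against 84.2 TPM in pool 2. Of 22 intracellular adaptors and membrane partners, 20 passed, led by Ilk at 168 TPM in pool 1 against 173 TPM in pool 2, Ptk2 at 81.2 TPM in pool 1 against 76.1 TPM in pool 2, Lims1 at 68.8 TPM in pool 1 against 77.4 TPM in pool 2, and Cd47 at 73.7 TPM in pool 1 against 70.6 TPM in pool 2. Ptk2b was below 1 TPM in both pools, with 0.76 TPM in pool 1 and 0.59 TPM in pool 2, and Parvg, a blood-cell parvin, was below it in pool 2.

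Of the 37 genes, 12 have exons that overlap another annotated gene, 9 of them a gene on the opposite strand, and whether counting used the strand was not given in the sources used here. Among these are Itga4 with Cerkl, Itga7 with Mettl7b and Itgav with Gm13684. Itga1, Itga10, Itgam and Itgad overlap a gene on their own strand, so reads there could have been split between them. Quantified with M21, the 26 expressed subunits had between 0.848 and 1.38 times their mean TPM under the older M4 annotation, and 0 of them were 1.5-fold apart, against 5.73% of expressed protein-coding genes.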

How the data were processed

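Pooled hindbrain RNA of both samples was sequenced as polyA plus libraries. Extraction used mirVana, and oligo-dT primed cDNA was cut by tagmentation, per the labels' protocols; spike-in RNAs took 3.31% of all counts in pool 1 and 4.25% in pool 2. On mm10, the authors deposited gene and transcript tables for the GENCODE M21 and M4 annotations, as their read-me files state. No source used here gives the program. In these tables the expected counts the authors deposited are estimated numbers of reads, unscaled and not always whole. The deposited TPM and FPKM values were divided by transcript length and scaled to a common total by the authors, so a short transcript with few counts can hold a large TPM. Shares of transcripts were computed from TPM and from expected counts.

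Counts were rounded and scaled with edgeR 4.0.16 (TMM) over all genes, with a prior count of 0.5. This scaling of ratios was tested on simulated counts with known folds. Those were drawn with sampling noise alone, less than the pools showed, so the simulation does not cover the added spread between pools. Intervals (95%) and the floor of 3 counts cover counting error only. The members and lists were chosen with earlier results of these data known. Members are given one by one or in counts, except that some items are not reported here, with the 4 highest of each pathway list, up to 3 of its genes below 1 TPM, the 3 highest of each marker list, and transcripts of 7 genes whose highest transcript held under 60% or differed between pools; some other marker genes were chosen after their values were seen. Sequences came from the GENCODE M21 transcripts with Python 3.11.15. Alternatives were M4, other levels, FPKM, other scalings, each pool alone and full coding sequences.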

Additional observations from a re-analysis of the deposited data

How the results depend on the processing

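No paired analysis was possible because the series holds 1 group of 2 pools. The 26 members, 12 trimers and 16 integrin pairs at 1 TPM came to 16 members, 8 trimers and 7 pairs at 5 TPM. With 1 pool at a time they ranged from 27 to 27 members, 12 to 12 trimers and 16 to 17 pairs. M4, FPKM and TPM over genes alone kept these counts within 1.5 times. Full coding sequences moved the ratio of alpha partners to Itgb1 to 0.501, the one without Itgav, Itga4 and Itga6 to 0.305, laminin alpha per gamma to 1.22 and beta per gamma to 2.16. M4 moved the ratio without those 3 to 0.352 and laminin alpha per gamma to 1.41. These moves exceeded the SD of 2 pools, and the cause of those under M4 was not tested. The list counts stayed within 1.5 times under the alternatives run.

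The count of members 2-fold apart, 0 as reported, was 1 (Lama5) with spike-in totals, 2 (Itgb2 and Itgb6) with 10 or more mean counts, 3 with no count filter (Itgax too) and 3 at 1.5-fold. Spike-in scaling put the median log2 ratio of all genes at 0.37 and left 1 of 29 members negative, against 13 as reported; DESeq2 size factors, total counts, a prior of 5 and M4 moved none of the 29 ratios beyond their counting interval. M4 moved 15 of 26 mean TPM values beyond the SD of the pools and 10 of 26 top transcript shares. Below 50 mean counts, the counting intervals of Itgb2 and Itgb6 excluded a log2 ratio of 0 and those of Lamb3, Itgae, Itgal, Itgax and Itgb7 included it. With 2 pools the SD is itself poorly known.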

Other observations

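Genes with like names that are not chains of these families were also listed. Itgb2l, an Itgb2-like gene, had 0 counts in pool 1 and 1 count in pool 2. Itgbl1, which encodes a secreted integrin-like protein, had 1.52 TPM in pool 1 and 1.46 TPM in pool 2. Itgb1bp2 (melusin), a muscle protein that binds the Itgb1 tail, had 2.84 TPM in pool 1 and 5.76 TPM in pool 2, with a log2 ratio of -0.97, while the skeletal muscle markers had a median log2 ratio of -2.29, and their part in the Itgb1bp2 ratio was not tested.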
